A study of Mus musculus with 24 samples.

Results

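Hearts of mice that had been given insulin-like growth factor 1 (IGF1) after a myocardial infarction were compared with hearts given vehicle at 168 h of reperfusion, on 8 of the 24 arrays of the series: the 4 titled IGF1 at 168 h and the 4 titled vehicle at 168 h. All mice were male C57BL6/J mice whose left anterior descending coronary artery had been closed for 45 min and reopened, and the tissue was the area at risk in the anterior wall. Every mouse also had isoflurane anaesthesia and buprenorphine against pain, and no age is given. The IGF1 group received 40 ng/g of recombinant mature IGF1 as a subcutaneous bolus when reperfusion began, then 1 µg/g per day from an osmotic pump for the first 3 days. The vehicle group received phosphate-buffered saline with bovine serum albumin. At 168 h the infusion had been over for 4 days, so the comparison asks which transcripts differed after treatment had stopped. The series' design text describes controls as sham-operated, whereas the label of each vehicle sample names 45 min of ischemia, and the labels were followed. They do not say which animal a sample came from, so the p-values rest on the scatter of the 24 samples of the series, which may be technical. Below, a heart means the sample on an array, and arrays may share an animal.

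IGF1 binds a receptor tyrosine kinase and acts through PI3K and Akt, which promote growth and survival and hold the FoxO transcription factors out of the nucleus. After reperfusion an infarct is cleared first by neutrophils and monocytes, then by macrophages that engulf dead cells and fill with lysosomes, while fibroblasts and new vessels form the scar. In such a wound, osteopontin and lysosomal genes mark phagocytic macrophages, and interferon gamma from lymphocytes induces GTPases and antigen presentation genes in myeloid and other cells.

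RNA was hybridised to one-colour arrays, and a level here is log2 of a gene's signal over the 75th percentile of its array, so that 0 is that percentile and 1 unit is a doubling. At 168 h between 55.7 and 62.9% of spots were well above background, and the 2 groups differed by 0.25 percentage points in that share (two-sided exact permutation test over 70 assignments, p = 1). Arrays correlated at 0.983 to 0.991 within the vehicle group, at 0.99 to 0.992 within the IGF1 group and at 0.986 to 0.993 between groups. The 20 cardiomyocyte markers measured, among them titin (Ttn) and cardiac myosin heavy chain (Myh6), averaged 6.37 to 6.91 on the 8 arrays. Replicates 1 to 3 of both groups shared 1 slide, and both replicates 4 lay on another. Because whole tissue was measured, fewer cells of a type and less RNA per cell cannot be told apart in any result here.

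No single gene passed the threshold at 168 h. Of 15875 genes tested with limma, 0 (0%) had an adjusted p below 0.05. The smallest adjusted p in limma was 0.073, for osteopontin (Spp1) and neuropeptide Y (Npy). Of these, Npy was not well above background on any vehicle array. At an unadjusted p below 0.05 stood 637 genes, 433 higher (2.73%) and 204 lower (1.29%) after IGF1. Together they were 4.01% of all genes, less than the share of 0.05 that such a cut lets through where nothing differs. In 209 genes (1.32%) all 4 IGF1 arrays exceeded all 4 vehicle arrays, and in 218 (1.37%) all were below. For the typical gene the unadjusted 95% interval reached 0.27 log2 units to either side (median half-width). A difference of that size need not pass the threshold after adjustment over all genes. Differences over 1 log2 unit were seen for 76 genes, 38 in each direction, against 459 genes at 24 h and 130 at 48 h. Of the alternative settings, normexp background correction and an intensity trend in eBayes each called 1 gene, Spp1, and array weights called 8. Leaving out IGF1 replicate 1 gave 14 genes, all higher after IGF1, and leaving out any of the other 7 arrays gave 0. The other alternatives at 168 h also gave 0. Among them, limma on the 8 arrays at 168 h alone had a smallest adjusted p of 0.73.

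Genes of phagocytic macrophages were among those with the smallest p, with higher values after IGF1. Spp1 encodes osteopontin, a secreted matrix protein that macrophages make in wounds. It read 2.44, 2.30, 2.25 and 2.35 on vehicle arrays 1 to 4 and 3.25, 7.07, 4.57 and 5.84 on IGF1 arrays 1 to 4. The vehicle hearts were almost level with each other, while the IGF1 hearts spread over nearly 4 log2 units, all above every vehicle heart. The difference was 2.85 ± 0.47 (SE), or 7.22-fold. The SE here and below pools the scatter of a gene over all 24 arrays, so it understates that of these IGF1 hearts. The adjusted p in limma was 0.073. Over 21 alternatives that p ran from 8.4e-05, without IGF1 replicate 1, to 1.00 on the slide with 3 arrays of each group alone. Within slides the difference was 2.64 among replicates 1 to 3 and 3.49 for replicate 4.

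The level of Spp1 in IGF1 hearts at 168 h overlapped its earlier levels. Vehicle hearts read 6.08 to 6.44 at 24 h and 6.39 to 6.92 at 48 h, and IGF1 hearts read 4.56 to 5.44 and 6.21 to 6.80. Only the vehicle hearts at 168 h, at 2.25 to 2.44, were below 3. At 168 h IGF1 replicate 2, at 7.07, was above every earlier heart, and replicate 4, at 5.84, lay between the IGF1 hearts of 24 h and those of 48 h. The IGF1 effect on Spp1 at 168 h exceeded that at 24 h by 4.0 ± 0.67 (SE, limma adjusted p = 0.0023).

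**Figure D1:**
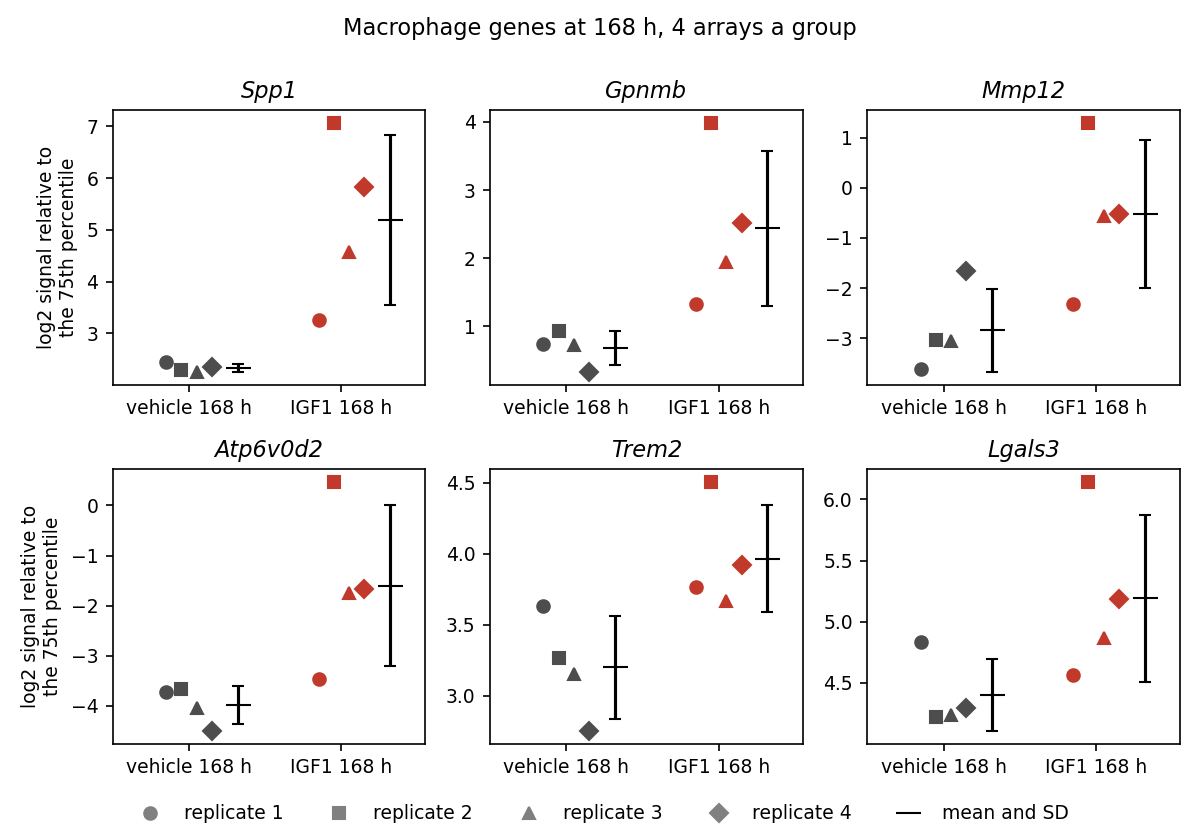
Levels of 6 macrophage genes on the 8 arrays at 168 h, on a log2 scale with each array's 75th percentile at 0 (vertical axis), for vehicle and IGF1 hearts (horizontal axis); points are arrays, shaped by replicate, and bars give mean and SD. In all 6 genes IGF1 replicate 2 is the highest array, as in Spp1, where it reads 7.07 against 2.25 to 2.44 in vehicle hearts.

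Gpnmb, a membrane glycoprotein of lysosome-rich macrophages, had the same order of IGF1 arrays. It read 0.74, 0.93, 0.73 and 0.33 with vehicle and 1.32, 3.99, 1.94 and 2.51 with IGF1. The groups did not overlap, and the difference was 1.76 ± 0.39 (adjusted p = 0.38). Mmp12, the macrophage elastase, read -3.61, -3.03, -3.06 and -1.66 against -2.32, 1.29, -0.56 and -0.52. Here IGF1 replicate 1 was below vehicle replicate 4, and the difference was 2.31 ± 0.51 (adjusted p = 0.38).

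Atp6v0d2, a subunit of the proton pump that acidifies lysosomes, read -3.73, -3.67, -4.04 and -4.51 in vehicle hearts, against -3.47, 0.47, -1.74 and -1.66 in IGF1 hearts. All 4 IGF1 hearts were above the vehicle hearts, replicate 1 only narrowly, and the difference was 2.39 ± 0.54 (adjusted p = 0.38). Trem2, a receptor for lipids and dying cells, read 3.63, 3.26, 3.16 and 2.75 against 3.77, 4.51, 3.67 and 3.92. That is a difference of 0.76 ± 0.20 with no overlap (adjusted p = 0.66). Npy was dim throughout, at -7.57, -6.78, -6.84 and -5.60 in vehicle hearts, and was not well above background on any vehicle array. In IGF1 hearts it read -5.16, -1.46, -3.82 and -2.96 and was well above background on 3 arrays, which makes it at least 3.85-fold higher. Its adjusted p of 0.073 in limma does not belong to this bound. That p came from the values as read, among them those not well above background.

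The 22 osteopontin, lipid-handling and lysosomal macrophage genes were listed after their values had been seen, so their count describes them and supports nothing. Among them 21 were higher after IGF1 and 1, the lipase Lpl, was lower, with a median difference of 0.43 against 0.00 for all genes. An unadjusted p below 0.05 was found for 16, all higher, against 2.73% of all genes higher at that p. The mean level of the 22 was 3.46, 3.24, 3.29 and 3.26 with vehicle and 3.58, 4.58, 3.84 and 3.99 with IGF1. The 4 IGF1 means were above the 4 vehicle means, and replicate 1 was the nearest to them. Lgals3 (galectin-3) was higher by 0.79 ± 0.24, the endosomal protein Cd68 by 0.69 ± 0.21, heme oxygenase Hmox1 by 0.66 ± 0.18 and the lysosomal protease Lgmn by 0.38 ± 0.10. The lysosomal channel Mcoln2 was higher by 0.64 ± 0.15 with no overlap, at -1.64 to -1.20 in vehicle and -0.95 to -0.44 in IGF1 hearts. None of these passed the threshold, and without IGF1 replicate 2 the difference of Lgals3 was 0.47 and that of Cd68 0.42.

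Of 18 monocyte and recruited macrophage markers, 16 were higher after IGF1 and 2 lower, with a median of 0.26. At an unadjusted p below 0.05, 7 were higher, against 2.73% of all genes. The receptor for macrophage colony-stimulating factor, Csf1r, read 5.53, 5.12, 5.32 and 5.25 in vehicle hearts, against 5.48, 5.65, 5.61 and 5.74 in IGF1 hearts, a difference of 0.32 ± 0.09 (adjusted p = 0.83). The 2 members that were lower mark inflammatory monocytes: the chemokine receptor Ccr2 at -0.11 ± 0.16 and Ly6c2 at -0.22 ± 0.13. The mean of this list ran from 1.20 to 1.95 in vehicle hearts and from 1.52 to 2.26 in IGF1 hearts, so the groups overlapped.

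Resident macrophage markers were higher in 14 of 19 and alternative activation and efferocytosis genes in 15 of 22, with medians of 0.29 and 0.26. Timd4, a phosphatidylserine receptor in both lists, went the other way (-1.74 ± 0.74, adjusted p = 1.00), and was well above background on 2 vehicle arrays and 1 IGF1 array. The scavenger receptor Stab1 read 3.13 to 3.30 in vehicle hearts and 3.53 to 3.63 in IGF1 hearts, which did not overlap, for a difference of 0.36 ± 0.11 (adjusted p = 0.80). The mannose receptor Mrc1 was higher by 0.35 ± 0.14. Arginase 1 (Arg1), an enzyme of alternatively activated macrophages, varied widely within the vehicle group. It read 0.86, -4.14, -4.99 and 1.47 with vehicle and -0.73, -2.05, -0.37 and -0.30 with IGF1, so the vehicle group held both the highest and the lowest values.

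Receptors of the CD300 and related families, which sense lipids and sugars on myeloid cells, were also listed after their values were seen. Of 15 measured, 12 were higher, with a median of 0.51 over the 15. Of these 12, 9 had an unadjusted p below 0.05, against 2.73% of all genes higher at that p. Cd300e was lower by 0.55, at -3.73 to -3.17 in vehicle and -4.31 to -3.78 in IGF1 hearts. Cd300ld read 1.65, 1.45, 1.57 and 1.60 in vehicle hearts against 1.81, 2.34, 2.05 and 2.16, a difference of 0.52 ± 0.12 with no overlap (adjusted p = 0.38). Clec4n, which encodes the fungal pattern receptor dectin-2, read 2.11 to 2.38 against 2.56 to 3.52, higher by 0.82 ± 0.23. Of 15 osteoclast genes, likewise listed afterwards, 11 were higher and 6 had an unadjusted p below 0.05. They included the acid phosphatase Acp5 (0.95 ± 0.29) and Atp6v0d2. Nfatc1, the main transcription factor of osteoclast formation, differed by -0.02 ± 0.09.

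Among 20 inflammatory cytokines and chemokines, 13 were higher and 7 lower. Il1rn, the antagonist that blocks the interleukin-1 receptor, had the largest difference, 1.84 ± 0.60 (adjusted p = 0.88), at -3.93 to -2.14 in vehicle hearts, against -3.87, 0.79, -1.35 and -0.73 in IGF1 hearts. IGF1 replicate 1 lay among the vehicle hearts, and without it the difference was 2.70. Interleukin-1 beta (Il1b), the signal that Il1rn opposes, differed by -0.20 ± 0.42, and the monocyte attractant Ccl2 by 0.40 ± 0.29. Without IGF1 replicate 1 the difference of Ccl2 was 0.80, and without replicate 2 it was 0.12. Neutrophil markers were higher in 11 of 19, with a median of 0.04. The interleukin-7 receptor Il7r, from the T and NK cell list, was higher by 1.35 ± 0.35, or by 0.81 without IGF1 replicate 2. That list was higher in 11 and lower in 11, and the T cell receptor component Cd3e differed by 0.14 ± 0.12.

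Genes induced by interferon gamma had lower values after IGF1. Igtp, a GTPase that guards against intracellular parasites, read 4.35, 2.41, 2.48 and 4.33 with vehicle and 2.21, 2.24, 1.88 and 2.26 with IGF1. Vehicle replicates 1 and 4 were about 2 log2 units above replicates 2 and 3, and all 4 IGF1 hearts were below the lowest vehicle heart. The difference was -1.24 ± 0.34 (adjusted p = 0.66), and it ran from -1.57 to -0.93 when single arrays were left out. It was -0.97 among replicates 1 to 3 and -2.08 for replicate 4. Irgm2, of the same GTPase family, read 3.77, 2.38, 2.52 and 3.64 against 2.21, 2.16, 2.01 and 2.13, a difference of -0.95 ± 0.25. Gbp4, a guanylate-binding protein, read 1.52, 0.26, 0.05 and 1.52 against -0.13, -0.47, -0.48 and -0.42, a difference of -1.21 ± 0.28 (adjusted p = 0.46). Tgtp2, whose near-identical copy Tgtp1 may share its probe, differed by -1.32 ± 0.37.

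Holding a match to the element described below was a condition for showing a promoter, so the matches in those shown support nothing. Promoters picked by hand are shown for Igtp, Irgm2, Tgtp2 and Gbp5, of the same list of GTPases. Each is the 250 bases before the start site in RefSeq, build GRCm38.p6. They lie at chr11:58199306-58199555 (plus strand) for Igtp, chr11:58214727-58214976 (plus strand) for Irgm2, chr11:49064213-49064462 (minus strand) for Tgtp2 and chr3:142496684-142496933 (plus strand) for Gbp5, each upstream of the gene's transcript. Capitals mark the core letters of the interferon-stimulated response element, TTTC, any 2 bases, then TTTC, on either strand.
Igtp: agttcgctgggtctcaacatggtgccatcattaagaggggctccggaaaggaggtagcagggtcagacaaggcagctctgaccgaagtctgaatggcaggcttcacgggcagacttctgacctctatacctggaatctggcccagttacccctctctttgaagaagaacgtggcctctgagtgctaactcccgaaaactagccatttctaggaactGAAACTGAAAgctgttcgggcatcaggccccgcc
Irgm2: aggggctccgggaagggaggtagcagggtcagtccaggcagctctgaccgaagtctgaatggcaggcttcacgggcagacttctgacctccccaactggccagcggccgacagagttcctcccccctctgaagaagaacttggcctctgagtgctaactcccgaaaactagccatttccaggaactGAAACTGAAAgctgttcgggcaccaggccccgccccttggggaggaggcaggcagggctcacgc
Tgtp2: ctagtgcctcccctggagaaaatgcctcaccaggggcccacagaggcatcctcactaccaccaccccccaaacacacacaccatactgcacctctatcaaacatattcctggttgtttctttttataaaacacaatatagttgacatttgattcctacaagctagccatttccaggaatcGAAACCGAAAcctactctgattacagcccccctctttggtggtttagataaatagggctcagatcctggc
Gbp5: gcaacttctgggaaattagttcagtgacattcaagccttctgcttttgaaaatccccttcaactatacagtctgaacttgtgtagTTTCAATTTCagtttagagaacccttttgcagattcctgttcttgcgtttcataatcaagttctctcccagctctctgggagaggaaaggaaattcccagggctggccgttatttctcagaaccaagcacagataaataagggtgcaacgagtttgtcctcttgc
The match ended 24 bases before the start in Igtp, 54 in Irgm2, 60 in Tgtp2 and 155 in Gbp5. Sequences were at hand for 9 of the 17 GTPases listed, and 8 of these 9 genes (88.9%) held that element, all but Ifi47, against 3.46% of 27018 genes. The Igtp and Irgm2 windows share long stretches around the match, so the genes counted are not independent cases. The gamma-activated site TTCNNNGAA was in 5 of the 9 (55.6%) and in 8.13% of all genes. These are letter matches within the windows, and no binding was measured. For comparison, the first element was in 1 of 17 of the osteopontin and lysosomal genes with a sequence (Spp1), and the E-box CACGTG in 4 of them (Ctsd, Ctsl, Lgmn and Mcoln2, 23.5%), against 6.86% of all genes.

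**Figure D2:**
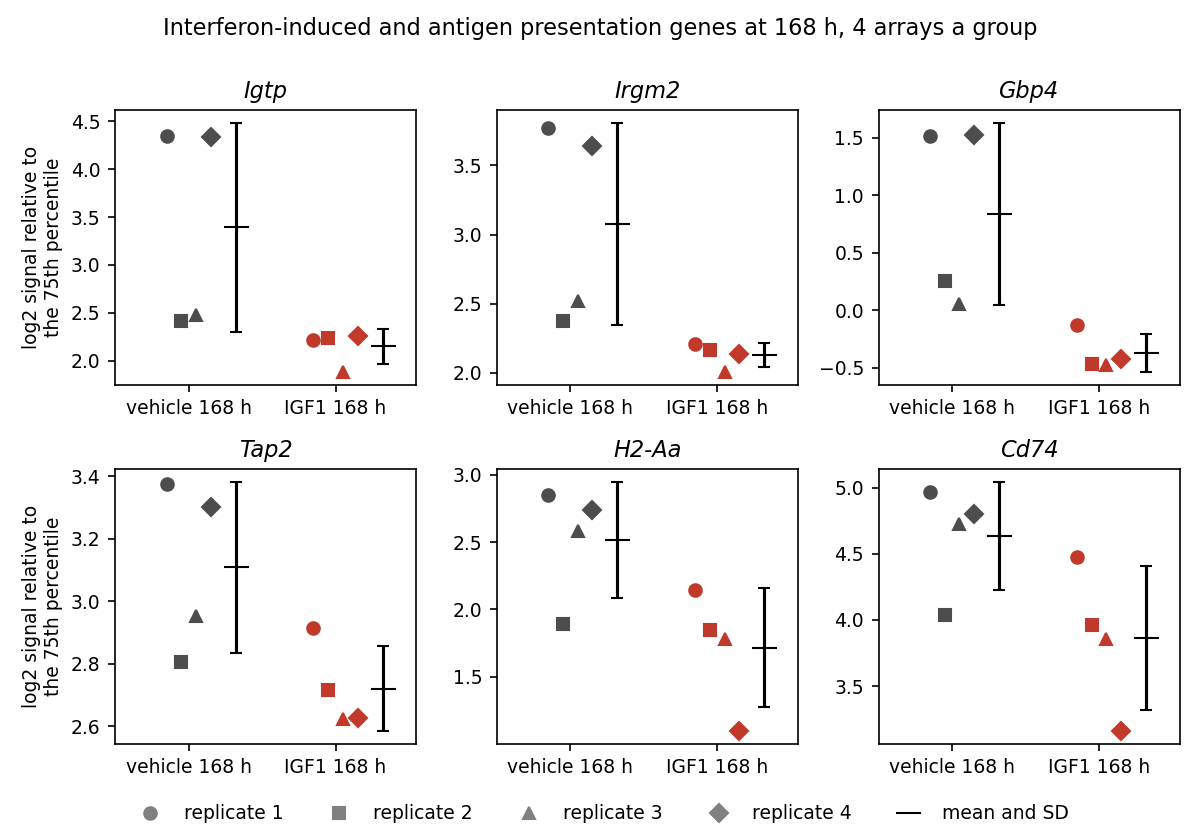
Levels of 6 interferon-induced and antigen presentation genes on the 8 arrays at 168 h, on a log2 scale with each array's 75th percentile at 0 (vertical axis), for vehicle and IGF1 hearts (horizontal axis); points are arrays, shaped by replicate, and bars give mean and SD. Vehicle replicates 1 and 4 stand high for Igtp, Irgm2 and Gbp4, at 4.35 and 4.33 for Igtp against 2.41 and 2.48 on the other 2.

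All 16 measured GTPases of this kind were lower after IGF1, with a median of -0.91. All 16 had an unadjusted p below 0.05, against 1.29% of all genes lower at that p. In 7 the groups did not overlap, and 1.37% of all genes were lower without overlap. The list was drawn up after the values had been seen. As for single genes, none passed the threshold. Their mean level was 1.89, 0.43, 0.59 and 1.72 in vehicle hearts, against 0.35, 0.31, 0.05 and 0.29 in IGF1 hearts. The IGF1 hearts were thus close to vehicle replicates 2 and 3, and vehicle replicates 1 and 4 stood above both. Of 23 interferon-stimulated genes in the broader list, 21 were lower, 7 of them at an unadjusted p below 0.05, with a median of -0.25. Within the vehicle group the 19 neutrophil markers were also higher in replicates 1 and 4 (means of -1.64 and -0.86) than in replicates 2 and 3 (-3.10 and -2.59), while IGF1 hearts ran from -2.59 to -1.32. Monocyte markers showed the same split (1.95 and 1.89 against 1.20 and 1.35). The part of these cells in the interferon genes' difference was not tested.

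Antigen presentation genes were lower as well. H2-Aa, the alpha chain of a class II histocompatibility molecule, read 2.85, 1.89, 2.59 and 2.74 with vehicle and 2.14, 1.85, 1.78 and 1.09 with IGF1. The groups overlapped through vehicle replicate 2, and the difference was -0.80 ± 0.22 (adjusted p = 0.69). The invariant chain Cd74 (-0.77 ± 0.25), H2-Ab1 (-0.72 ± 0.24) and H2-Eb1 (-0.69 ± 0.23) gave nearly the same sizes. IGF1 replicate 4 was the lowest array for all 4 genes, and without it H2-Aa differed by -0.59 and H2-Eb1 by -0.47. Among replicates 1 to 3 H2-Aa differed by -0.52, and between the replicates numbered 4 by -1.65.

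Class II and dendritic cell genes were lower in 14 of 18, with a median of -0.40. Among them 7 had an unadjusted p below 0.05, against 1.29% of all genes lower at that p. The mean of the 18 ran from 0.26 to 0.95 in vehicle hearts and from -0.23 to 0.72 in IGF1 hearts. In the class I pathway, listed after the values were seen, 12 of 12 were lower with a median of -0.25, and 6 had an unadjusted p below 0.05. Tap2, a subunit of the peptide transporter, read 3.37, 2.81, 2.95 and 3.30 against 2.91, 2.72, 2.62 and 2.63, a difference of -0.39 ± 0.11 (adjusted p = 0.70). The immunoproteasome subunit Psmb9 differed by -0.56 ± 0.20, and beta-2 microglobulin (B2m), the light chain of class I molecules, by -0.07 ± 0.10.

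Proliferation genes stood slightly higher after IGF1. All 22 mitosis genes and all 19 DNA replication genes were higher, with medians of 0.31 and 0.26. Yet 0 and 4 of them had an unadjusted p below 0.05, against 2.73% of all genes higher at that p. Cdt1, which loads the replicative helicase, had the smallest p of these, at a difference of 0.42 ± 0.13 (adjusted p = 0.88). Mcm6, a subunit of that helicase, read 2.82, 2.83, 2.85 and 2.91 in vehicle hearts, against 2.84, 3.12, 3.21 and 3.28 in IGF1 hearts, which overlapped through IGF1 replicate 1. The proliferation antigen Mki67 read 1.41, 2.24, 1.52 and 1.82 against 1.70, 2.10, 2.04 and 2.19. The mean of the mitosis list ran from -0.67 to 0.04 in vehicle and from -0.46 to 0.16 in IGF1 hearts, so the groups overlapped. Which cells carried these transcripts was not measured.

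Heart muscle genes were close to equal, with small shifts of the medians downwards. Cardiomyocyte markers were lower in 18 of 20 with a median of -0.05, and the largest difference among them was -0.17. Their mean ran from 6.37 to 6.91 in vehicle and from 6.47 to 6.79 in IGF1 hearts, so the IGF1 hearts lay within the vehicle range. Sarcomere genes were lower in 20 of 22 (median -0.08), calcium handling and ion channel genes in 22 of 25 (-0.11), oxidative phosphorylation genes in 27 of 28 (-0.07) and fatty acid oxidation genes in 24 of 27 (-0.13). None of these 4 lists had a member with an unadjusted p below 0.05, against 4.01% of all genes. In 3 calcium handling and ion channel genes and 1 sarcomere gene all IGF1 arrays were below all vehicle arrays, against 1.37% of all genes. The mean of the oxidative phosphorylation list ran from 5.90 to 6.50 in vehicle and from 5.98 to 6.37 in IGF1 hearts. For fatty acid oxidation these ranges were 3.17 to 3.78 and 3.31 to 3.51, so the groups overlapped in both lists. Myh6 read 7.75, 7.87, 7.97 and 8.28 with vehicle and 7.91, 7.75, 7.95 and 8.28 with IGF1, a difference of 0.01 ± 0.14. The calcium pump of the sarcoplasmic reticulum, Atp2a2, differed by -0.11 ± 0.16.

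Of 14 fetal and stretch-responsive cardiac genes, 4 were higher and 10 lower, with a median of -0.04. Of the 14, 1 (Acta1) had an unadjusted p below 0.05 and was lower, against 1.29% of all genes lower at that p. The natriuretic peptides Nppa and Nppb differed by -0.00 ± 0.11 and -0.02 ± 0.17. Skeletal actin (Acta1), a fetal gene re-expressed in strained hearts, read 5.32, 5.75, 5.71 and 5.53 in vehicle hearts against 5.16, 4.90, 5.15 and 4.76. All 4 IGF1 hearts were below the vehicle hearts, and the difference was -0.59 ± 0.26 (adjusted p = 1.00). The slow myosin Myh7 read 7.83, 7.01, 7.96 and 5.94 against 7.18, 6.63, 6.83 and 5.34, so that each IGF1 array was below the vehicle array of its own number. The group means differed by -0.69 ± 0.38, or by -0.31 without IGF1 replicate 4 and -1.11 without vehicle replicate 4.

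Of 20 ligands, receptors, binding proteins and adaptors of the IGF axis, 9 were higher and 11 lower, with a median of -0.01. The heart's own Igf1 transcript read 3.07, 2.88, 2.80 and 2.55 in vehicle hearts, against 3.12, 3.41, 3.09 and 3.04 in IGF1 hearts. That was a difference of 0.34 ± 0.16, with vehicle replicate 1 inside the IGF1 range (adjusted p = 1.00). The receptor Igf1r differed by -0.02 ± 0.16, the adaptors Irs1 and Irs2 by -0.14 ± 0.17 and -0.06 ± 0.15, and the binding proteins Igfbp3 and Igfbp5 by 0.07 ± 0.22 and 0.11 ± 0.28. FoxO target and atrophy genes were lower in 18 of 20 with a median of -0.11. They included the muscle ubiquitin ligases Fbxo32 (-0.33 ± 0.24) and Trim63 (-0.21 ± 0.13). Trim63 read 3.23 to 3.52 in vehicle and 3.11 to 3.32 in IGF1 hearts. The mean of the 20 FoxO target and atrophy genes ran from 1.97 to 2.07 in vehicle and from 1.84 to 1.94 in IGF1 hearts, which was not tested. The only member of this list with an unadjusted p below 0.05 was higher after IGF1, against 2.73% of all genes higher at that p.

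Scar genes differed little. Collagens were higher in 17 of 19, yet the median was 0.07, and Col1a1 and Col3a1, the main scar collagens, differed by 0.07 ± 0.15 and 0.03 ± 0.16. In 2 of the 19 collagens the groups did not overlap, both higher after IGF1, against 1.32% of all genes higher without overlap. Col18a1, of basement membranes, read 2.67 to 2.77 in vehicle and 2.86 to 3.13 in IGF1 hearts (0.32 ± 0.16), and Col5a1, which starts collagen fibrils, read 5.57 to 5.94 and 5.96 to 6.07 (0.24 ± 0.11, adjusted p = 1.00 for both). Periostin (Postn), a marker of activated fibroblasts, read 6.10 to 6.68 in vehicle and 6.57 to 6.75 in IGF1 hearts. Metalloproteases and their inhibitors were higher in 18 of 21 (median 0.13). After Mmp12, the smallest p was that of Mmp14, a membrane-bound collagenase, which read 1.08, 0.65, 1.05 and 1.16 with vehicle and 1.45, 1.42, 1.14 and 1.43 with IGF1 (0.37 ± 0.13, adjusted p = 0.88). The crosslinking enzyme Loxl2 was higher by 0.35 ± 0.13, though by 0.18 on its other probe, and the fibronectin gene Fn1 by 0.19 ± 0.15. Activated fibroblast markers were higher in 15 of 20 (median 0.13), resting fibroblast markers in 9 of 20 (-0.01) and endothelial markers in 8 of 22 (-0.04).

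A few lower genes belonged to no group above. Wt1, the transcription factor of the epicardium, read 0.34, 0.34, -0.10 and 0.34 against -0.30, -0.73, -0.29 and 0.14, a difference of -0.52 ± 0.15 (adjusted p = 0.80). The mean of the 14 epicardial and mesothelial genes ran from -1.61 to 0.20 in vehicle and from -1.66 to -0.56 in IGF1 hearts, so the groups overlapped. Bend7 was lower by 0.50 on 1 probe and by 0.07 on its other probe, so the probes disagreed. Pabpn1l was well above background on 3 vehicle arrays and 0 IGF1 arrays, at least 1.48-fold lower in IGF1 hearts. All 8 adipocyte genes measured were lower, and their mean was lowest, at -3.77, on IGF1 replicate 4 and highest, at -1.62, on vehicle replicate 2, with the part of fat in the samples not tested.

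**Figure D3:**
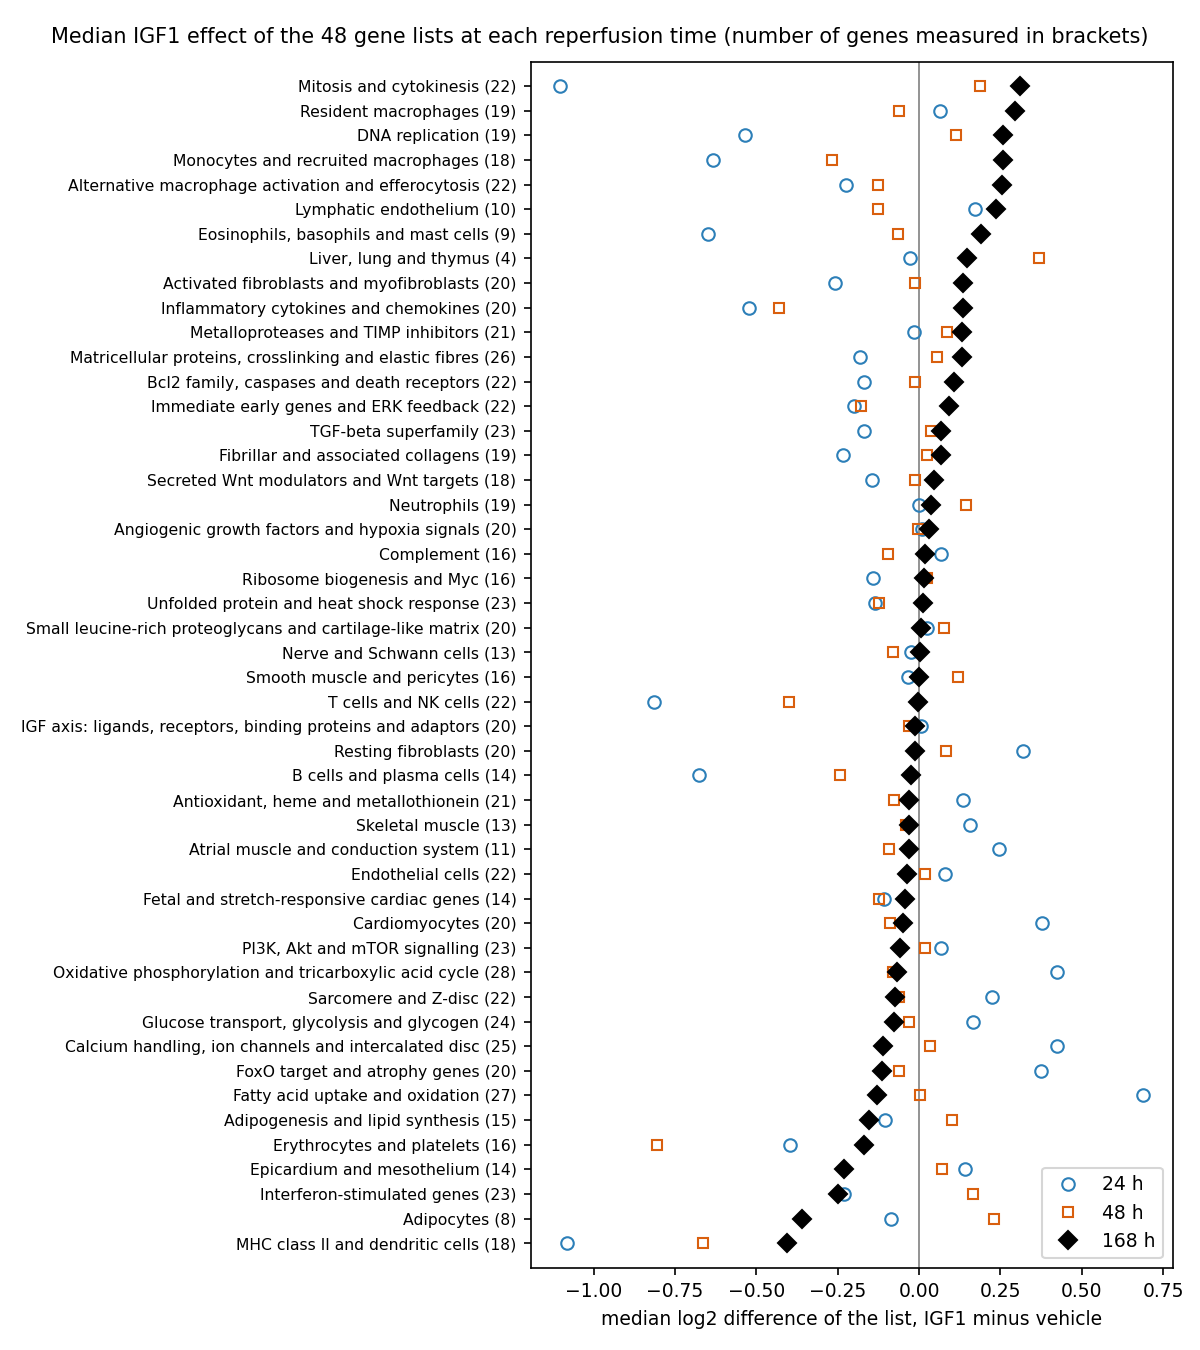
Median log2 difference, IGF1 minus vehicle, of each of 48 gene lists (vertical axis, measured genes in brackets) at 24, 48 and 168 h (horizontal axis, log2 units). At 168 h the medians lie between -0.40 and 0.31, whereas at 24 h they run from -1.10 for mitosis to 0.69 for fatty acid oxidation.

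Set against 24 h, when IGF1 was still being infused, the treatment effect had changed for many genes. The difference between the effects at 168 h and at 24 h passed the threshold for 1012 genes in the higher direction (6.37%) and 744 in the lower (4.69%), in limma with adjustment over all genes. At 24 h 2591 genes (16.3% of all) were called, and they included 1572 (89.5%) of these 1756. At 168 h 375 of the 1756 had an unadjusted p below 0.05, against 637 (4.01%) of all genes. The median size of the effect in the 1756 was 0.55 at 24 h and 0.19 at 168 h. The test that picked these 1756 genes uses both effects. Small p-values at either time are thus more common among them by that choice alone, and these shares support nothing. The difference from 48 h passed for 0 genes (0%), with 1101 at an unadjusted p below 0.05 and a smallest adjusted p of 0.16. The 24 h count was 1007 without IGF1 replicate 1 at 24 h, 1085 without vehicle replicate 2 at 24 h and 1093 without vehicle replicate 2 at 168 h. It was 1152 with median scaling, 1021 when dim probes were not filtered out and 2759 with array weights. For 48 h, array weights called 71 genes, leaving out IGF1 replicate 1 at 168 h 15 and leaving out vehicle replicate 1 at 168 h 1.

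**Figure D4:**
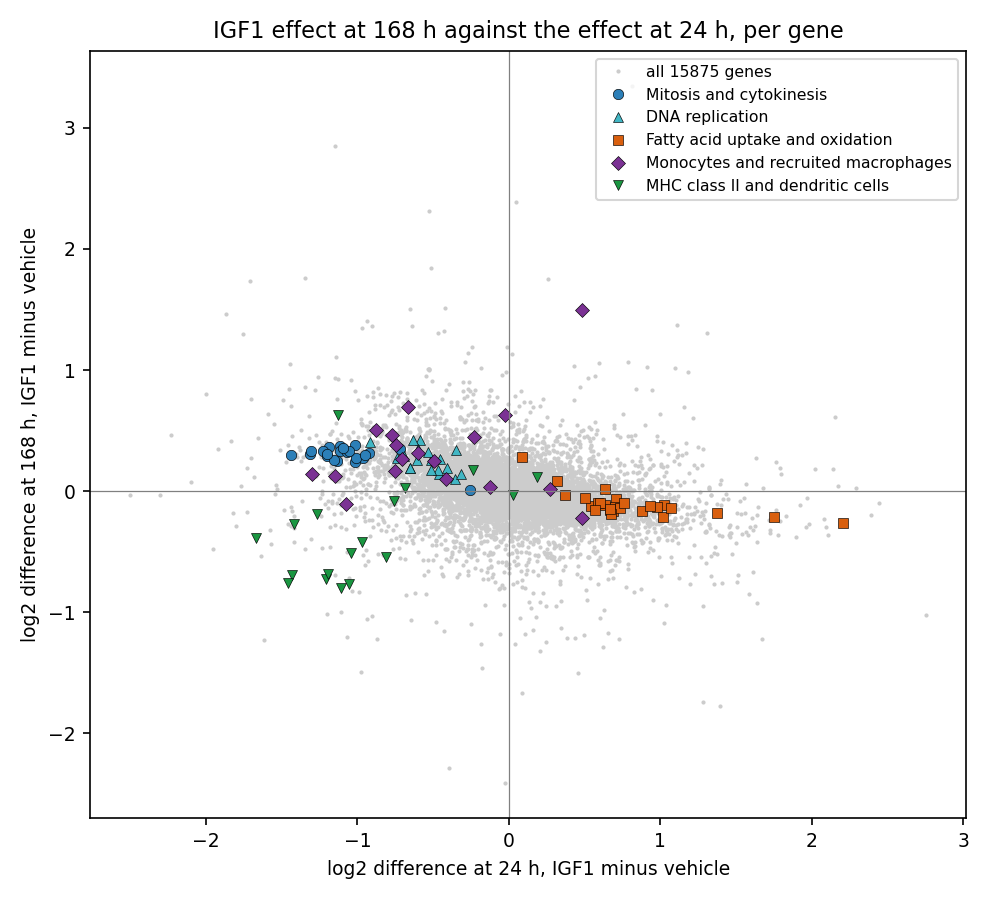
Log2 difference, IGF1 minus vehicle, at 168 h (vertical axis) against 24 h (horizontal axis) for 15875 genes, with 5 gene lists marked. Mitosis and DNA replication genes sit at the left and just above 0, and fatty acid oxidation genes at the right and just below 0. Class II genes are mostly below 0 on both axes.

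The median effect of mitosis genes was -1.10 at 24 h, 0.19 at 48 h and 0.31 at 168 h. The test of the difference between 168 and 24 h was passed by 17 of 22, all in the higher direction. DNA replication genes passed in 16 of 19, all higher too. Of all genes, 6.37% passed in that direction. Ncapg2, a subunit of the condensin complex that compacts chromosomes, read -1.07 to -0.47 in vehicle and -1.95 to -1.46 in IGF1 hearts at 24 h. At 168 h it read -0.98, -1.01, -1.14 and -0.96 against -0.93, -0.41, -0.76 and -0.36. The IGF1 hearts were below at 24 h and above at 168 h, without overlap both times, and the effects differed by 1.41 ± 0.19 (adjusted p = 0.00062).

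Of monocyte and macrophage markers, the median effect was -0.63 at 24 h, -0.27 at 48 h and 0.26 at 168 h. Resident macrophage markers had medians of 0.07, -0.06 and 0.29. Cd300c2, an activating receptor of myeloid cells, read 1.84 to 2.12 in vehicle and 0.48 to 1.08 in IGF1 hearts at 24 h. At 168 h it read 2.55, 1.95, 2.27 and 2.09 against 2.45, 2.96, 2.57 and 2.62, so the groups overlapped through vehicle replicate 1. Its effects differed by 1.57 ± 0.20 (adjusted p = 0.00055). Gpnmb differed between the times by 3.10, Trem2 by 1.90 and Csf1r by 0.91. Of 18 monocyte and macrophage markers 7 passed in the higher direction and 1, Ly6c2, in the lower, against 6.37% and 4.69% of all genes. Of the osteopontin and lysosomal genes, 14 of 22 passed in the higher direction and 1, Lpl, in the lower. That list was made after the 168 h values had been seen. The test uses those values, so this count supports nothing.

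**Figure D5:**
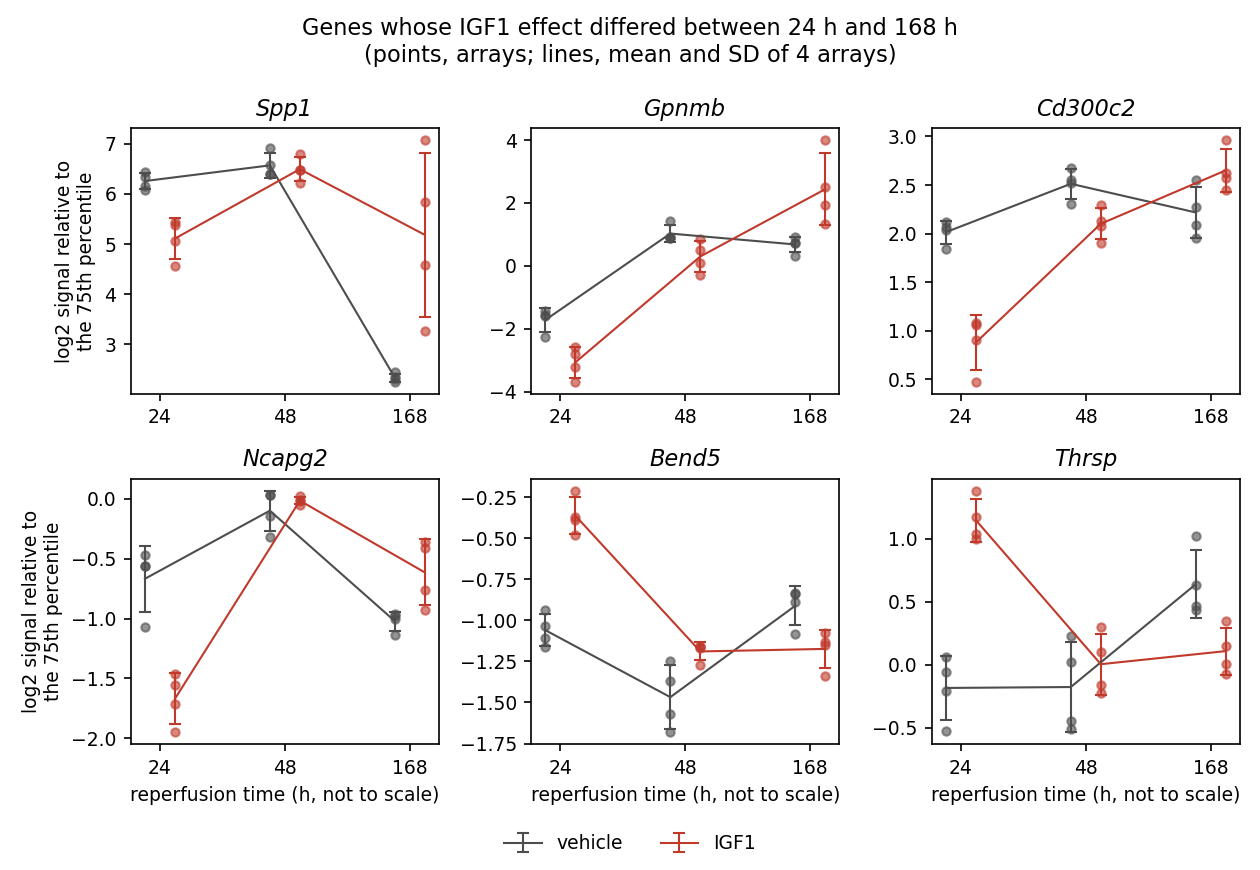
Levels of 6 genes on a log2 scale with each array's 75th percentile at 0 (vertical axis) at 24, 48 and 168 h (horizontal axis, not to scale) in vehicle and IGF1 hearts; points are arrays and lines join the means with the SD of 4 arrays. The lines of the 2 treatments cross between 24 and 168 h in each gene, and in Spp1 they part at 168 h (means 2.33 and 5.18).

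Fatty acid oxidation genes had a median effect of 0.69 at 24 h and -0.13 at 168 h. In the lower direction 19 of 27 passed, against 4.69% of all genes. For Cpt1b, the muscle enzyme that admits fatty acids to mitochondria, the effect was 1.02 at 24 h (adjusted p = 0.0022) and -0.22 at 168 h, and the effects differed by -1.23 (adjusted p = 0.0079). Of 20 FoxO target genes 7, among them Pdk4 (-2.03) and Fbxo32 (-1.45), passed in the lower direction too. Thrsp, a regulator of fat synthesis, was higher by 1.33 at 24 h and lower by 0.53 at 168 h, and the effects differed by -1.87 ± 0.25.

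Class II and dendritic cell genes were lower at all 3 times. Their median effect was -1.08 at 24 h, -0.66 at 48 h and -0.40 at 168 h. The test of the difference from 24 h was passed by 4 of 18 (H2-Oa, Flt3, Itgax and Irf8). All 4 were in the higher direction, in which 6.37% of all genes passed. H2-Aa differed by -1.11 at 24 h (adjusted p = 0.0036) and by -0.80 at 168 h, and the difference between these effects was 0.31 ± 0.32 (adjusted p = 0.58). The interferon GTPases had a median effect of 0.17 at 24 h, 0.15 at 48 h and -0.91 at 168 h. In the test of the difference from 24 h, 6 of 16 passed, all lower, against 4.69% of all genes. Their list was made after the 168 h values had been seen, so this count supports nothing. Igtp itself read 1.27 ± 0.03 (SD, n = 4) in vehicle hearts at 24 h and 3.39 ± 1.09 at 168 h, against 1.51 ± 0.32 and 2.15 ± 0.18 in IGF1 hearts. Of the 6 groups of the series, vehicle hearts at 168 h had the highest mean and the widest scatter for Igtp.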

How the data were processed

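Total RNA of the infarcted area was labelled with Cy3 and hybridised to Agilent SurePrint G3 Mouse arrays, per the labels' protocols. Per the file headers, scans were read with Feature Extraction 12.0.3.2 (Agilent), whose deposited processed signal is an intensity on a linear scale, corrected for background within each array and not scaled between arrays. The authors' processed table, also deposited, gives log2 values that matched the scanner values after 1 offset per probe and array (column medians -0.0557 to 0.0527). It served as an alternative, and which arrays set its centring is unknown.

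Control spots and outlier spots were left out. Levels were log2 processed signal minus the array's 75th percentile. A probe was kept if well above background on at least 4 of 24 arrays. For genes with several kept probes the brightest was used. Symbols came from RefSeq accessions: 33767 of 56605 probes (59.7%) had 1. Differences were fitted with limma 3.58.1 in R 4.3.3 (1 mean per group over 24 arrays, 18 residual degrees of freedom), two-sided, with Benjamini-Hochberg adjustment over 15875 genes and a threshold of 0.05. The fit was run on simulated data with independent noise on each array. That simulation held nothing shared between same-numbered arrays, so it cannot check the fit against such sharing. A gene well above background on 0 arrays of a group has only a bound ("at least N-fold"): the brighter mean against, per array, the higher of the dimmest signal well above background and its own. With 4 arrays a group, their number limits the precision.

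Named genes were the 15 in each direction with the smallest p (none having passed), up to 4 members of each of 48 lists, the 10 smallest p of each test between times, and genes named in advance. Members of the 6 lists made after seeing the values, and Timd4, Cd300e, Lyz2, Fam167a, H2-Oa, Flt3, Itgax and Irf8, were also named, chosen after their values were seen. Clone names were counted only, and some genes that met the rule are not reported here. The comparison, the members and the lists were chosen with earlier results of these data known, so no list is tested, and each is described by counts and its median.

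The labels number replicates 1 to 4 in each group. Deviations from the group means correlated between same-numbered vehicle and IGF1 arrays at 0.287, 0.186, 0.192 and 0.502 at 168 h. Each IGF1 array matched its own number best, so the numbers were taken as pairs in an alternative fit, the replicate block. The main fit, with its SEs and p-values, left the arrays unpaired. At 168 h both replicates 4 lay on a slide apart from the others, and the part of the slide in their match was not tested. This pairing comes from the data, as no label states what a number shares. Alternatives covered background correction, scaling, filters, probe choice, slide and replicate blocks, array weights and leaving out each array.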

Additional observations from a re-analysis of the deposited data

Results flagged for a closer look

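Of 170 groups of 4 arrays examined, 5 held an array far from the other 3, where chance alone would give about 1 in 20. Fmn1, a formin that nucleates actin, read -2.64 in vehicle replicate 1 and -3.14 to -3.09 in the other 3. Gbp4 read -0.13 in IGF1 replicate 1 against -0.48 to -0.42. Igtp read 1.88 in IGF1 replicate 3 against 2.21 to 2.26. Wt1 read -0.10 in vehicle replicate 3 against 0.34 on each of the other 3. The mean of the lymphatic endothelium list was -0.14 in IGF1 replicate 1 against -0.36 to -0.33.

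The IGF1 effect at 168 h differed from that at 24 h for 1756 genes by limma's test of the difference. Of the 10 with the smallest p, the 8 given here had adjusted p-values of 0.00055 to 0.00062. The effect at 168 h was the higher for Cd300c2 (1.57), Ncapg2 (1.41), Cd300ld (1.24), the lymphocyte and myeloid adhesion molecule Cd48 (1.24), the adaptor Sash3 (1.21) and Cyth4 (1.08). It was the lower for Thrsp (-1.87) and Bend5 (-0.96). The 2 probes of Bend5 disagreed in size at 168 h, with differences of -0.26 and -0.04.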

How the results depend on the processing

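The count of genes past the threshold at 168 h was 0, and it was 1 with normexp background correction, 1 with a trend in eBayes, 8 with array weights and 0 to 14 when single arrays were left out (14 without IGF1 replicate 1). For the effect at 168 h minus that at 24 h the count of 1756 became 1152 with median scaling, 1021 with no filter on dim probes, 2759 with array weights and 1007 to 2392 without single arrays. For 168 h minus 48 h the count of 0 became 71 with array weights and 0 to 15 without single arrays. The difference in the share of spots well above background was -1.09 to 1.31 percentage points without single arrays. With the replicate block, by which same-numbered arrays are paired, the counts were 0 at 168 h, 2261 against 24 h and 0 against 48 h. Of the 2261 genes 1583 were among the 1756, so that 173 calls were lost and 678 gained. Among the gene lists whose calls are given, the block took away 1 monocyte marker and 1 osteopontin and lysosomal gene (Ctsb) and left the other calls in place. The cause of these moves was not tested.

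Of 6750 values of 323 named genes under the alternatives at 168 h, 6606 kept their direction and side of the threshold, 20 moved past it and 0 reversed. In 124 the sign changed for genes with an unadjusted p of 0.05 or more. Scaling moved the median of all genes by at most 0.007. The dim gene Bach2os, at 1.36, read 0.25 with normexp. Signals below the dimmest one well above background (-6.02 to -4.29) have no order. For the typical gene the unadjusted 95% interval, with scatter pooled over all 24 arrays, reached 0.27 log2 units to either side.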

Other observations

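Several genes that belong to no list above stood higher after IGF1. Hells, a chromatin remodeller of dividing cells, read -4.53 to -3.73 in vehicle hearts and -3.78 to -3.08 in IGF1 hearts. Tnfsf15, a ligand of the tumour necrosis factor family, read -4.06 to -3.32 against -3.58, -2.99, -2.27 and -2.49. Fmn1 was higher by 0.68 ± 0.15 with no overlap, and the 3 probes kept for it gave 0.58 to 0.68. Of 15 cholesterol synthesis genes, listed after their values were seen, 14 were higher with a median of 0.11. They were led by Sqle, squalene epoxidase, at -0.96 to -0.76 in vehicle and -0.67 to -0.14 in IGF1 hearts (0.44 ± 0.12, adjusted p = 0.76).

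The 14 genes past the threshold without IGF1 replicate 1 were Spp1, Npy, Mmp12, Il1rn, Atp6v0d2, Gpnmb, Slc37a2, Lyz2, Fam167a, Cd200r1, Tnfsf15, Fcrlb, Cd300ld and a clone, with differences from 0.61 to 3.49 apart from Npy and Fcrlb, which were not well above background on any vehicle array. The lysozyme gene Lyz2, which marks macrophages and neutrophils, was at 2.48 ± 0.21 (SD, n = 4) in vehicle and 3.27 ± 0.68 in IGF1 hearts. Array weights called 8 genes, Spp1, Npy, Mmp12, Tnfsf15, Fcrlb, Hells, Bach2os and the same clone. The weights were 0.473 and 0.468 for vehicle replicates 1 and 4 and 3.29 for IGF1 replicate 3.

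Of 11057 kept probes without a gene symbol, 0 passed the threshold in limma at 168 h when all 34463 kept probes were tested, and 265 (2.40%) had an unadjusted p below 0.05. The smallest adjusted p over all probes was 0.16.

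Across genes, the differences at 168 h and at 24 h, which share no arrays, correlated at -0.34, and those at 168 h and 48 h at -0.02. These are descriptions over genes, which are not independent replicates. Opposite signs at 24 and 168 h were seen in 67.3% of all genes.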
